A study of Mus musculus with 6 samples.

Results

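The p53 group comprised Trp53, which encodes the transcription factor p53, and 9 of its best known targets, Mdm2, Ccng1, Cdkn1a, Gadd45a, Btg2, Bax, Trp53inp1, Sesn2 and Phlda3. The genes were chosen by name, with earlier results of these data known. Each was represented by the array probe set of highest mean level among those with exactly 1 gene symbol. Of the 10 genes, 8 were measured in this way, among 18193 genes in all, and Trp53 and Bax were not analysed here. RNA came from whole livers of male mice 10 weeks old. The 3 KO livers carried the genotype L Pex5 -/-, a loss of the peroxisomal import receptor Pex5 in the liver, and the 3 livers of the other group were WT. The labels give both groups the same mixed genetic background, Alb-Cre Tac:[Sw]fBR. In Alb-Cre the albumin promoter drives the recombinase, so deletion is aimed at hepatocytes, while whole liver RNA also holds that of the other liver cell types. The study's design calls the 3 livers of a group biological replicates, with 1 array each.

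p53 is held at a low level in unstressed cells by Mdm2, a ubiquitin ligase that marks it for destruction and is itself a p53 target, so the pair forms a feedback loop. DNA damage, oxidative stress and other insults stabilise p53, which then switches on genes that halt the cell cycle, promote apoptosis, repair DNA or adjust metabolism. In liver, Cdkn1a and Mdm2 are among the classic responders. Several of these genes also answer to other regulators, for example Gadd45a and Sesn2 to ATF4, the transcription factor of the integrated stress response, and Sesn2 to NRF2, the regulator of antioxidant genes.

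Promoter sequences, from 250 bases before to 50 bases after a gene's start in RefSeq's annotation of the mouse build GRCm38.p6, were matched to 9 of the 10 genes, with 10 promoters in all, since Cdkn1a has 2 start sites. They were searched for the p53 half-site, written RRRCWWGYYY, where R is A or G, W is A or T and Y is C or T. Letters outside these windows were not searched, and whether p53 binds a match was not tested. A p53 half-site, the 10-base unit of the p53 response element, lay in 6 of the 10 promoters, those of Cdkn1a (upstream start), Ccng1, Mdm2, Gadd45a, Bax and Trp53, against 8.36% of all 32851 promoters. Among the 8 measured genes, 7 had a promoter sequence and 4 of these held a half-site. Cdkn1a alone of the 9 genes held 2 exact matches to the half-site in one promoter, beginning 73 and 51 bases before the upstream start site with 12 bases between them. Pairs with 0 to 13 bases between them were found in 0.0731% of all promoters. The whole upstream promoter of Cdkn1a lies at chr17:29090729-29091028 on the plus strand, and the other start site is 2790 bases further downstream. The stretches from the other genes, all on the minus strand, lie at chr11:40755442-40755491 for Ccng1, chr10:117710915-117710964 for Mdm2 and chr6:67037418-67037467 for Gadd45a. Capitals mark exact matches to the half-site. In Cdkn1a the 10 letters right after the second match, tgacatgttc, miss the half-site only at their first base. They were neither counted nor marked, and which of these letters p53 binds was not tested.
Cdkn1a: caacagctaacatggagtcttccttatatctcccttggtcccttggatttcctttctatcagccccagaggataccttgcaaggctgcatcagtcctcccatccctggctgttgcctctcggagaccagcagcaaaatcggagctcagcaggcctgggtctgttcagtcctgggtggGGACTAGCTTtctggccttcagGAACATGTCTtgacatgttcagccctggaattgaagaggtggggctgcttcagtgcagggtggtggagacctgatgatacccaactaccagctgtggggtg
Ccng1: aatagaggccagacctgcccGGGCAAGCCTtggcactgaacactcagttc
Mdm2: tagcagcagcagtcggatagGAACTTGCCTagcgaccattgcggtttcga
Gadd45a: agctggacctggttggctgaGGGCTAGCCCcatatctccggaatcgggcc

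In these letters the half-site of Ccng1 begins 185 bases before the start, that of Mdm2 186 bases and that of Gadd45a 40 bases before it. Motifs of other stress regulators were searched on both strands of the same windows. TGACNNNGC, the core of the antioxidant response element bound by NRF2, occurred in 3 of the 10 promoters and in 12.4% of all, with the match of Sesn2 36 bases before its start. TGACGTCA, the cyclic AMP response element, occurred in the promoter of Btg2, 166 bases before the start, and in 1.79% of all promoters. TGATGNAA, the core of the element bound by ATF4 with CHOP, was in none of the 10 and in 3.97% of all. CCAAT was in 6 of the 10 and 37.4% of all, and TATAAA in 1 and 13.6%. The stretches for Sesn2 at chr4:132510464-132510512 and Btg2 at chr1:134079294-134079341, both on the minus strand, show the NRF2-type core and the cyclic AMP element in capitals.
Sesn2: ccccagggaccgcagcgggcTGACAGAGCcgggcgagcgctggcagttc
Btg2: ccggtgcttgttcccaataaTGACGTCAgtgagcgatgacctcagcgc

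The promoters of the p53 group were rich in G and C, with a median of 62.8% (range 52.7% to 72%), against a median of 52.7% over all promoters. A match describes the letters only, and nothing follows from a missing match about the factor.

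Levels are log2 values made by RMA, differences are KO minus WT, and a gene was called higher or lower where limma's adjusted p, taken over all 18193 genes, was under 0.05. All 8 measured genes were higher in KO livers, against 14.2% of all genes called higher, 9.75% called lower and 24.0% called in either direction. Since the genes were chosen with earlier results of these data known, the shares are given as a description only. In all 8 genes the 3 KO arrays lay above the 3 WT arrays, against 22.1% of all genes. Over all genes 22.6% had the 3 KO arrays below the 3 WT arrays, so that the groups did not overlap in 44.8%. The median difference of the 8 genes was 1.10, against a median of -0.055 over all genes, and the folds ran from 1.39 to 7.71. At least a doubling was found in 4 of the 8, namely Gadd45a, Cdkn1a, Trp53inp1 and Ccng1, against 3.02% of all genes that were called higher with at least that fold. The lowest array value of the 8 genes was 5.94, and none lay under the background of 4.90, the 95th percentile of the mean levels of 38 olfactory receptor genes.

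Facts of the whole series bear on these values. Pex5, the targeted gene, stood at 9.35, 9.19 and 9.13 in KO livers and at 9.14, 8.88 and 9.11 in WT livers, a difference of 0.18 ± 0.11 (SE of the limma fit, adjusted p = 0.262). The groups overlapped. Whether its probe set lies in the deleted part is not given in the sources used here, so it checks no label. RMA is meant to set the arrays to one distribution, so directions are relative to the bulk of genes. The deposited arrays did not share it exactly, as every KO array had a lower median and a lower maximum than any WT array. Quantile normalization of the deposited values gave 2075 higher and 1932 lower genes, with 7 of the 8 targets called higher. With the arrays centred on 45 probe sets for bacterial control transcripts, which were dimmer on KO arrays, each difference rose by 0.44. The calls over all genes then moved to 11086 higher and 475 lower, against 2589 and 1774 as deposited, and all 8 p53 targets stayed called as higher. Hepatocyte markers defined the tissue, with Alb at 14.71 ± 0.01 in KO and 14.56 ± 0.03 in WT livers (SD, n = 3), and of 6 hepatocyte markers 1 was lower, the serpin Serpina1c. Of 33 measured markers of other liver and blood cells 1 was higher and 5 were lower in KO, beside 14.2% and 9.75% of all genes. The higher one was Lyve1, a marker of sinusoidal endothelium, which was at least 3.55-fold higher because all WT arrays lay under the background. In the same list of 6 endothelial markers 2 went the other way, Kdr and Clec4g, both called lower. Summed on the linear scale, the marker lists of macrophages, stellate cells and neutrophils overlapped between the groups. Those of endothelial, bile duct and lymphoid cells were lower on every KO array than on any WT array. So was the hepatocyte sum (16.61 to 16.66 in KO and 16.70 to 16.75 in WT livers, log2), but its 6 markers did not share a fall. Serpina1c differed by -0.98 and Apoa1 by -0.10, while Alb, Ttr, Tat and Cps1 differed by 0.15, 0.067, 0.22 and 0.14. Krt7 of the bile duct list and Nkg7 of the lymphoid list were under the background on all 6 arrays. The part of cell makeup in the results was not tested, and in whole tissue fewer cells of a type and less RNA per cell cannot be told apart.

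**Figure D1:**
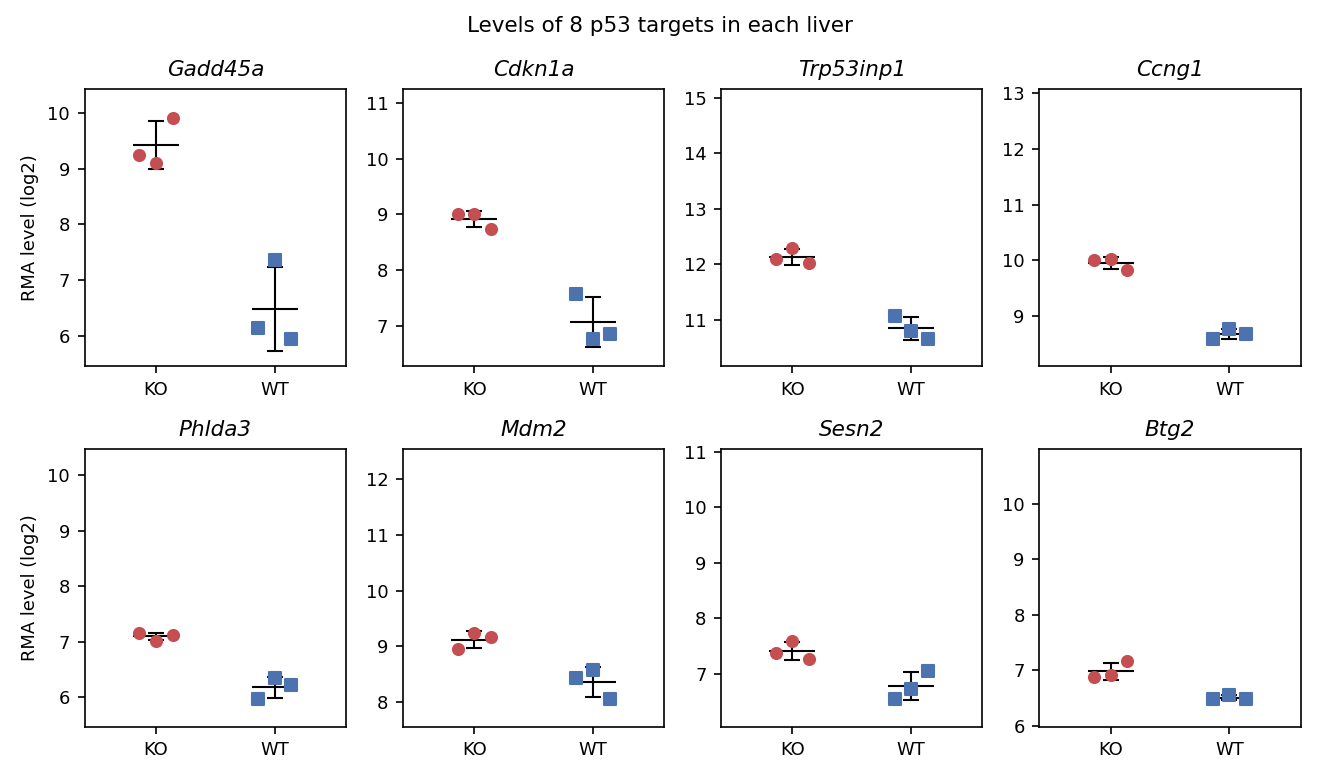
RMA level (log2) of each of the 8 measured p53 targets in the 3 KO and the 3 WT livers, 1 point per liver, with the mean as a wide bar and the SD as whiskers. Each panel spans the same number of log2 units, and in every panel the 3 KO points lie above the 3 WT points, with the widest gap in Gadd45a and the narrowest in Sesn2.

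The genes of the feedback arm were higher in KO livers. Mdm2 stood at 8.94, 9.23 and 9.17 in KO livers, against 8.43, 8.57 and 8.05 in WT livers. The lowest KO liver exceeded the highest WT liver by 0.37. The difference was 0.76 ± 0.15 (SE, adjusted p = 0.00899), a 1.70-fold rise. Its second probe set rose as well (0.62 ± 0.16, adjusted p = 0.0285), and the dimmest of its 3, below the background on all arrays, differed by -0.10. The mean of the 3 probe sets differed by 0.43 and still passed (adjusted p = 0.0161). Centred on the bacterial controls, Mdm2 differed by 1.20.

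Ccng1 encodes cyclin G1, which brings a phosphatase to Mdm2 and is one of the most regular p53 targets in mouse tissues. It stood at 10.00, 10.02 and 9.83 in KO livers, against 8.59, 8.75 and 8.66 in WT livers. Its spread was the smallest in WT after that of Btg2, with SDs of 0.10 in KO and 0.084 in WT livers. The difference was 1.28 ± 0.10 (adjusted p = 0.000108), a 2.43-fold rise with the lowest adjusted p of the 8 genes. All 3 of its probe sets rose, by 1.28, 1.42 and 1.38.

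The 3 genes of cell cycle arrest were higher too, over a wide range of sizes. Cdkn1a encodes p21, the inhibitor of cyclin-dependent kinases through which p53 stops cells in the G1 phase. It stood at 9.005, 9.001 and 8.747 in KO livers, against 7.57, 6.76 and 6.85 in WT livers. The WT livers were spread more widely (SD 0.44, against 0.15 in KO), through the higher value of WT replicate 1. The difference was 1.85 ± 0.21 (adjusted p = 0.000736), a 3.62-fold rise, and its second probe set gave 1.91 ± 0.24. Without WT replicate 1 the difference was 2.11, the highest of the 6 values with 1 array left out, and the lowest was 1.71.

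Gadd45a, whose product binds p21, the replication clamp PCNA and upstream kinases of the stress pathways, had the largest difference of the group. It stood at 9.24, 9.11 and 9.92 in KO livers, against 6.14, 7.35 and 5.94 in WT livers. WT replicate 2 lay more than a log2 unit above the other WT livers and still 1.76 below the lowest KO liver. The difference was 2.95 ± 0.37 (adjusted p = 0.00122), a 7.71-fold rise, the 50th largest rise of 18193 genes. Gadd45a had 1 probe set with its symbol alone, so no second probe set checks it.

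Btg2, an antiproliferative partner of the deadenylase that shortens mRNA tails, had the smallest difference. It stood at 6.87, 6.91 and 7.16 in KO livers, against 6.49, 6.55 and 6.49 in WT livers. The WT livers were nearly alike (SD 0.038), and the lowest KO liver lay 0.32 above the highest of them. The difference was 0.47 ± 0.10 (adjusted p = 0.0149), a 1.39-fold rise. A second probe set overlapped between the groups and did not pass (0.30 ± 0.14, adjusted p = 0.167). With control centring Btg2 differed by 0.91.

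Of the apoptosis genes, Trp53inp1 was measured. Its product acts with p53 and its kinases and also takes part in autophagy. It was bright in both groups, at 12.10, 12.29 and 12.02 in KO livers, against 11.07, 10.81 and 10.66 in WT livers. The difference was 1.29 ± 0.13 (adjusted p = 0.000458), a 2.45-fold rise. A second, dimmer probe set rose by 1.15 ± 0.20 (adjusted p = 0.00624), so both placed the 3 KO livers above the 3 WT livers.

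The genes that tie p53 to nutrient and growth factor signals were higher as well. Phlda3, a pleckstrin-homology protein that competes with AKT for membrane lipids, stood at 7.15, 7.02 and 7.11 in KO livers, against 5.97, 6.34 and 6.22 in WT livers. The KO livers were close to each other (SD 0.070), and the difference was 0.92 ± 0.12 (adjusted p = 0.00124), a 1.89-fold rise. It was measured by 1 probe set.

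Sesn2 encodes sestrin 2, a leucine sensor that restrains the growth kinase mTORC1 and favours AMPK. It stood at 7.38, 7.59 and 7.27 in KO livers, against 6.55, 6.73 and 7.05 in WT livers. WT replicate 3 came within 0.22 of the lowest KO liver, the narrowest gap of the 8 genes. The difference was 0.64 ± 0.15 (adjusted p = 0.0175), a 1.55-fold rise. It no longer passed once KO replicate 1 (adjusted p = 0.0552), KO replicate 2 (0.0716) or WT replicate 2 (0.0502) was left out, nor with quantile normalization (0.066), the range over 16 alternatives being 0.00043 to 0.0716. A second probe set differed by 0.30 ± 0.12 and did not pass (adjusted p = 0.13), although its KO arrays also lay above its WT arrays. With control centring Sesn2 differed by 1.08.

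**Figure D2:**
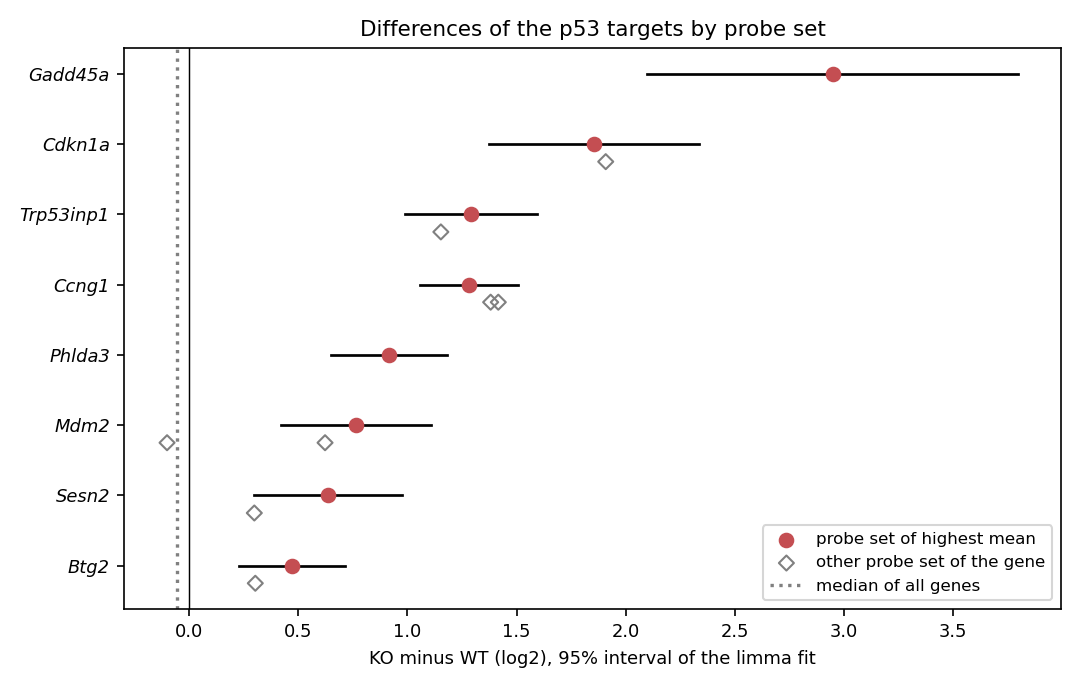
Difference KO minus WT (log2) of the 8 measured p53 targets, from the largest at the top, with filled points for the probe set of highest mean, 95% intervals of the limma fit as lines, and open diamonds for the other probe sets of the same gene. The 8 intervals lie wholly above 0, and of all 16 probe sets only the dimmest one of Mdm2 lies below 0.

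In the order of the differences the genes ran Gadd45a, Cdkn1a, Trp53inp1, Ccng1, Phlda3, Mdm2, Sesn2 and Btg2. The 95% intervals of each of the 7 neighbouring pairs overlapped, while the interval of Gadd45a (2.10 to 3.80) lay above that of Trp53inp1 (0.99 to 1.59). Overlap of intervals is no test of a difference between 2 genes, and the order was not tested. Of the 16 probe sets of the 8 genes 13 passed as higher, in the fit over all probe sets with 1 symbol, and in 14 the KO arrays lay above the WT arrays. The livers did not share one order. KO replicate 2 was the highest KO liver in 4 of the 8 genes, and KO replicates 1 and 3 in 2 each. WT replicate 2 was the highest WT liver in 5 genes, WT replicate 1 in 2 and WT replicate 3 in 1. In 6 of the 8 genes the spread was wider in WT than in KO, with median SDs of 0.15 in KO and 0.23 in WT livers, beside 0.10 and 0.15 over all genes.

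The 3 genes whose levels followed Cdkn1a most closely over the 6 arrays were Ino80c, Trappc6a and Ensa, with Pearson correlations of 0.9999, 0.9992 and 0.9991. The arrays form 2 groups that differ in 4363 genes, and 900 genes exceeded 0.95, so the ranking among them is a description of these 6 arrays.

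Other targets of p53 came from 3 lists of named genes, in which 17 of 38 measured genes were higher and 2 lower, with a median difference of 0.22, beside 14.2% of all genes called higher and 9.75% called lower. Among 12 genes of cell death 6 were higher and none was lower. The largest rise was that of Eda2r, a receptor of the tumour necrosis factor family, at 5.18, 5.40 and 5.56 in KO livers and 3.42, 3.73 and 3.45 in WT livers, all under the background in WT and thus at least 1.39-fold higher (adjusted p = 7.88e-05). Zmat3, an RNA-binding zinc finger protein, differed by 1.15 ± 0.19 and Aen, an apoptosis-enhancing nuclease, by 1.02 ± 0.11, and the probe sets of Aen averaged 0.64 (adjusted p = 0.00364). Bbc3, which encodes the p53-induced death protein PUMA, did not pass (0.04 ± 0.21), and Pmaip1 and Tnfrsf10b lay under the background on all arrays (these 3 were picked out after their values were seen).

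Among 13 measured genes of arrest and DNA repair 7 were higher and none was lower, beside 14.2% and 9.75% of all genes. Plk2, a kinase of the polo family, differed by 1.01 ± 0.15, and its probe sets averaged 0.47 (adjusted p = 0.00731). Rrm2b, the p53-induced subunit of ribonucleotide reductase, differed by 0.74 ± 0.16 (adjusted p = 0.0121). Rev3l, the catalytic subunit of a translesion polymerase, differed by 0.69 ± 0.19 (adjusted p = 0.0356). It missed the threshold when KO replicate 1, 2 or 3 was left out (adjusted p = 0.0939, 0.117 and 0.0814), differed by 0.45 without WT replicate 3, and its probe sets averaged 0.27 (adjusted p = 0.118).

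Genes of metabolism and secretion went both ways, 4 of 13 measured higher and 2 lower, beside 14.2% and 9.75% of all genes. Their median was -0.088, whose sign the shift of 0.44 from control centring turns. Ddit4, an inhibitor of mTORC1 also known as REDD1, stood at 11.11, 10.18 and 10.77 in KO livers, against 7.64, 7.48 and 7.49 in WT livers (3.15 ± 0.21, adjusted p = 5.9e-05). Tigar, a phosphatase that lowers fructose 2,6-bisphosphate, rose by 1.47 ± 0.17 and Ephx1, microsomal epoxide hydrolase, by 1.19 ± 0.12. The 2 lower genes, picked out after their values were seen, were the xylulose reductase Dcxr (-0.83 ± 0.12) and Sesn1 (-0.50 ± 0.12), another sestrin. With control centring Dcxr differed by -0.39 and was still called lower, while Sesn1 differed by -0.062 and was not (adjusted p = 0.679). Sesn1 averaged -0.32 over its probe sets, and it also missed the threshold without KO replicate 2, KO replicate 3 or WT replicate 2 (adjusted p = 0.0865, 0.0671 and 0.0557).

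Of 15 measured paralogs, the close relatives of the p53 targets, 1 was higher and 1 lower, with a median difference of 0.22, beside 24.0% of all genes called in either direction. Bak1, the partner of Bax in opening the mitochondrial outer membrane, rose by 0.60 ± 0.11 (adjusted p = 0.0081), at 5.73, 5.89 and 5.99 in KO livers and 5.43, 5.25 and 5.13 in WT livers. Trp53inp2, the relative of Trp53inp1 that works in autophagy, fell by 0.76 (SE 0.13, adjusted p = 0.00488), a call lost with control centring (-0.32, adjusted p = 0.0819). Sesn3 differed by -0.43 ± 0.17 (0.014 with control centring), Gadd45b by 0.51 ± 0.24 and Gadd45g by 0.59 ± 0.93 without passing, values given after they were seen. With quantile normalization Sesn3 was called lower (-0.56, adjusted p = 0.0352). Gadd45b was called higher with control centring (0.95, adjusted p = 0.00828) and with array weights (0.74, adjusted p = 0.0303). With 1 array left out its adjusted p ran from 0.0162 to 0.395.

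**Figure D3:**
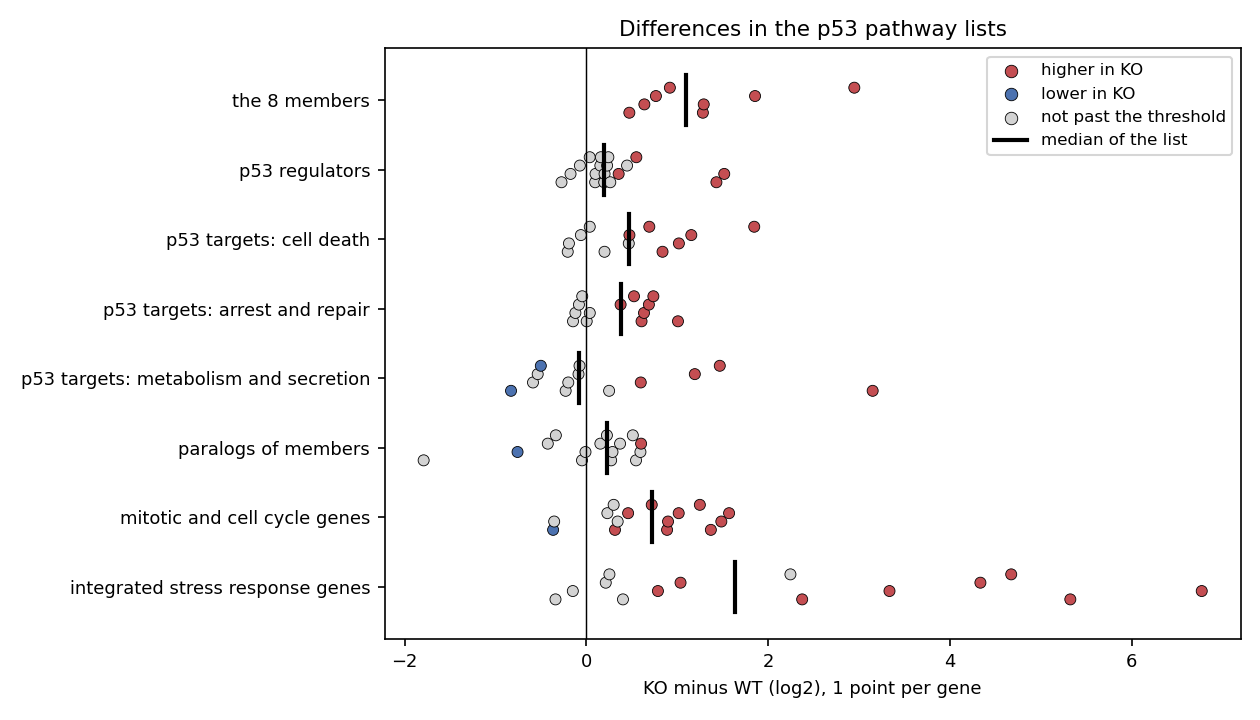
Difference KO minus WT (log2) of every measured gene in the p53 group and in 7 lists of the pathway, 1 point per gene, coloured by whether it passed limma's test as higher or lower in KO, with the median of each list as a bar. The 8 measured targets all lie above 0, while 4 of 18 p53 regulators and 2 of 15 paralogs are coloured as past the threshold.

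Upstream of p53, 4 of 18 measured regulators were higher and none was lower, with a median of 0.20, beside 14.2% of all genes called higher. Atr, the kinase that answers stalled replication forks, stood at 8.20, 8.41 and 8.05 in KO livers, against 6.92, 6.91 and 6.54 in WT livers (1.43 ± 0.14, adjusted p = 0.000407), and its probe sets averaged 0.89 (adjusted p = 0.00214). Trp53bp1, a p53-binding protein of double-strand break repair, differed by 1.52 ± 0.22 in its brightest probe set (adjusted p = 0.00255), but its probe sets averaged 0.11 and did not pass (adjusted p = 0.285). The checkpoint kinase Chek1 differed by 0.55 ± 0.15 (adjusted p = 0.0315), with all 3 WT arrays and 2 of 3 KO arrays under the background. It missed the threshold when KO replicate 1 or 2 (adjusted p = 0.0838 and 0.107) or WT replicate 1 or 3 (0.0759 and 0.0634) was left out, and its probe sets averaged 0.10 (adjusted p = 0.44). The fourth, Ep300, an acetyltransferase of p53, rose by 0.35 ± 0.09, and was picked out after its value was seen. Its call was lost with quantile normalization (0.23, adjusted p = 0.107) and without KO replicate 1, 2 or 3 or WT replicate 2 (0.0631, 0.0658, 0.0768 and 0.05002). Mdm4, the partner of Mdm2, differed by 0.45 ± 0.16 and the kinase Atm by 0.19 ± 0.10, and neither passed, values likewise given after they were seen. Both passed as higher with control centring (Mdm4 0.89, adjusted p = 0.00308, and Atm 0.64, adjusted p = 0.00155). With the probe sets averaged Atm passed (0.31, adjusted p = 0.0327) and Mdm4 did not (0.23, adjusted p = 0.0795).

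Cdkn1a was high in the same livers in which genes of mitosis and replication were high. Of 15 measured genes of this kind, many of which p21 represses through the DREAM complex, 10 were higher in KO and 1 was lower. Of all genes 14.2% were called higher and 9.75% lower, and the median difference of the list was 0.72. Over the 6 arrays the mean level of 6 of the 15 genes lay under the background. Bub1, one of the 10 higher genes and picked out after its value was seen, lay under it on every array. Mki67 stood at 5.75, 6.19 and 6.96 in KO livers and at 4.62, 4.95 and 4.88 in WT livers (1.48 ± 0.27, adjusted p = 0.00676), with 2 WT arrays under the background. Birc5 and Ccnb2, an inhibitor of apoptosis and a mitotic cyclin, were under the background in all WT livers and at least 1.83-fold and 1.45-fold higher in KO. The lower one, seen only afterwards, was Cdc20 (-0.37 ± 0.11), which activates the anaphase-promoting complex. Its direction turned with the probe sets averaged (0.96, adjusted p = 0.00165) and with control centring (0.073, adjusted p = 0.578).

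Of 14 genes of the integrated stress response 8 were higher in KO and none was lower, beside 14.2% and 9.75% of all genes. Their median difference was 1.64, against -0.055 over all genes. Trib3, a pseudokinase induced by ATF4 and CHOP, differed by 4.67 ± 0.34. Nupr1, a stress-induced nuclear protein, was higher by 6.77 ± 0.23, a size that its WT levels do not fix, since their mean lay at the background. Psat1, an enzyme of serine synthesis, was at least 24.3-fold higher, as all WT arrays were under the background. The 8 called genes were higher in the same arrays as all 8 measured p53 targets, as is any gene called higher in a comparison of 2 groups. The part of the integrated stress response in the values of the p53 targets was not tested.

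**Figure D4:**
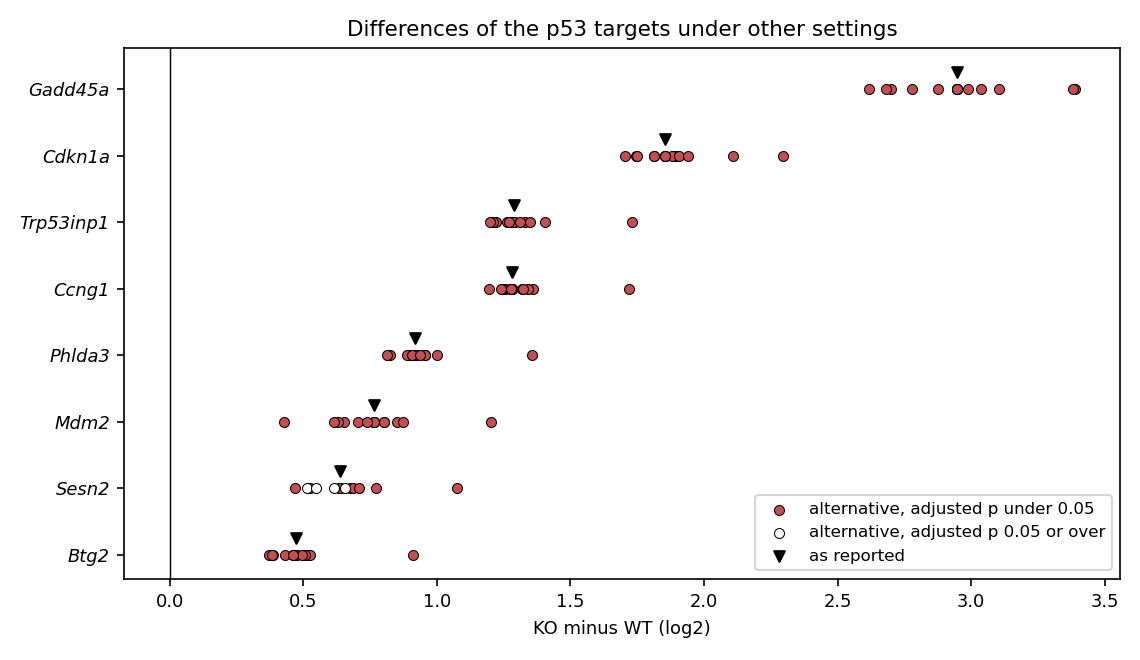
Difference KO minus WT (log2) of the 8 measured p53 targets as reported (triangles) and under the other normalizations, probe set choices, variance models and left-out arrays (circles, filled where limma's adjusted p was under 0.05). All circles lie above 0, and the open circles, where the call was lost, belong to Sesn2.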

How the data were processed

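Per the labels' protocols, Trizol was used to isolate total RNA, which was biotin-labelled for Affymetrix arrays. The authors deposited 1 log2 level for each probe set, and the submitters' processing notes name RMA without its version. The log2 scale was read from the values (2.15 to 14.9). No batch is given in the sources used here. The number of arrays limits the precision.

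Of 45101 probe sets, 64 are controls and 34945 have 1 gene symbol in the platform annotation of 2016, while 932 have several and 9160 are not listed there. Gene identifiers, checked against the RefSeq table of GRCm38.p6, changed 0 symbols. The test was that of limma 3.58.1, run in R 4.3.3 (group as the only factor, two-sided, Benjamini-Hochberg over 18193 genes, threshold 0.05, no filter). The fit was tested on simulated data. A fold against a group wholly under the background is a lower bound against that background.

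The members and gene lists were chosen with earlier results of these data known. All measured members are described. From each list the text names up to 3 called genes with the largest difference, and other genes are marked. Motifs were counted in RefSeq promoter windows. Alternatives were a replicate block, a filter on low levels, quantile normalization, centring on the array median or on bacterial controls, the mean of a gene's probe sets, all probe sets tested, trend and robust eBayes, array weights, a threshold of 0.01 and leaving out each array.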

Additional observations from a re-analysis of the deposited data

How the results depend on the processing

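Over 16 alternatives the direction was kept for each of the 8 p53 targets but not for all 42 genes that the text names with a difference. Cdc20 gave 0.073 with control centring and 0.96 with the probe sets averaged, and Sesn3 gave 0.014 with control centring. Bbc3, which did not pass, gave -0.094 with quantile normalization, -0.017 with array weights and -0.20 to 0.26 with 1 array left out. Gadd45g, which did not pass either, gave -0.23 with array weights and -0.42 to 1.54 with 1 array left out. Between 6 and 8 of the 8 targets were called higher and 0 lower, with 7 or 8 higher when 1 array was left out. At a threshold of 0.01, Btg2 and Sesn2 were the 2 targets not called. Of 669 recomputed values of named genes 610 kept their direction and side of the threshold, 39 lost the call, 10 gained one (among them Pex5 with control centring, 0.62, adjusted p = 0.00138) and 10 turned direction. Over all genes, centring on the bacterial controls gave 11086 higher and 475 lower, a threshold of 0.01 gave 1285 higher and 732 lower, and leaving out 1 array gave 1497 to 2424 higher and 888 to 1679 lower. The lowest counts came without KO replicate 2 (1497 higher and 888 lower), followed by KO replicate 1 (1604 and 984) and KO replicate 3 (1956 and 1156). Fits without a WT array also held 1 array fewer. They gave 2424 higher and 1679 lower without WT replicate 1, and 2118 and 1439 without WT replicate 2. The reason for the lower counts was not tested. In the 7 pathway lists together 40 genes were higher and 4 lower, against 77 and 1 with control centring and 2 lower at a threshold of 0.01. With 1 array left out they ran from 34 to 42 higher and from 2 to 5 lower, the 2 being without KO replicate 2. Same-numbered KO and WT livers deviated from their group means with correlations of 0.105, -0.018 and 0.105 for numbers 1, 2 and 3. KO replicate 2 correlated best with WT replicate 1 (0.116). With 3 livers in each group these correlations cannot decide whether the numbers pair the livers. A replicate block gave 2471 higher and 1618 lower genes and 8 of 8 targets higher. With 3 arrays in each group no exact permutation test can go below 0.1.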
